A study of Rattus norvegicus with 12 samples.

Results

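The medial prefrontal cortex of aged and young rats that had never done a cognitive task was compared, gene by gene, to describe aging without task training. All rats were Wistar. The aged rats were 22 months old and gave the libraries named here AN1, AN2 and AN3, and the young rats were 3 months old and gave YN1, YN2 and YN3. These nonperforming rats shared the surroundings of the trained animals without ever being engaged in the task, and the labels give no other treatment or allele. They are 6 of the 12 RNA sequencing libraries of the study. The other 6 come from performing rats of the same ages, trained and tested for attention in an operant task (young, YP1 to YP3, and aged, AP1 to AP3). The comparison took in every gene that reached 10 in 3 or more of the 12 libraries, which is 13496 of 15939 genes. Values are normalized read counts, and differences are aged minus young on the log2(value + 1) scale, which understates the change of low genes. An error after ± is an SD of 3 libraries for a level and a standard error for a difference. The labels do not say that each library is a separate animal, so p-values measure the spread between these samples, which may be technical.

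The medial prefrontal cortex serves attention, working memory and the control of behaviour. Its neurons switch on immediate early genes such as Fos, Arc and Npas4 soon after activity, and feedback inhibitors of signalling such as Dusp1 and Zfp36 are induced on a similar time scale. Its vessels consist of endothelial cells wrapped by pericytes and, on arteries, by contractile smooth muscle, and its surface is covered by collagen-making meningeal fibroblasts.

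The 6 libraries held from 22597857 to 36657127 reads. Slc17a7, the vesicular glutamate transporter of cortical excitatory neurons, ranged from 26302 to 42470 and Cux2, a marker of upper layer neurons, from 1442 to 2843, so both were present in all 6. YN3 stood apart. It had a value of 37304 for Ttr, which encodes transthyretin and is made by choroid plexus, against 37.6 or less in the others. Mitochondrially encoded genes took 10.8% of its reads against 13.9 to 20.1%, and it had the highest value of the 6 libraries for 5001 of the 13496 genes. Results are therefore given with all 6 libraries and again without YN3, which leaves YN1 and YN2 as the young group, and the part of choroid plexus tissue in them was not tested. Among the aged libraries, AN3 had the highest values of Hbb (16903), a red cell gene, and of Drd2 (381), a dopamine receptor gene abundant in striatum.

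Few differences held against the spread between libraries. limma, fitted to all 4 groups, called 0 genes at an adjusted p under 0.05 (0.0% of 13496), and its smallest adjusted p was 0.66. At an unadjusted p under 0.05 it had 428 genes (3.17%), 225 higher (1.67%) and 203 lower (1.5%) in the aged rats. That split was 281 higher and 155 lower when library totals left out mitochondrially encoded genes, 185 and 248 after quantile normalization, and 230 and 191 after TMM rescaling. In edgeR, which differs in its model as well, it was 226 and 338. Without YN3 limma again called 0 genes, with 364 at an unadjusted p under 0.05 (2.7%). edgeR called 0 genes with YN3 (564 at an unadjusted p under 0.05, 4.18%) and 0 without it (387, 2.87%). DESeq2, run like edgeR on the reads recovered from the table, called 7 of 13478 genes with all libraries (0.0519%), 6 higher (0.0445%) and 1 lower (0.00742%). Without YN3 it called 16 of 13228 (0.121%), 15 higher (0.113%) and 1 lower (0.00756%), and 3 genes were in both sets. Below, "rose" and "fell" are kept for DESeq2 calls. The aged mean was higher for 50.8% of genes, or 49.3% without YN3, with a median difference of 0.01 over all genes. Leaving out YN3 turned the sign of 4944 genes (36.6%), none of them among the 428. In bulk tissue, fewer cells of a type and less RNA per cell cannot be told apart, which holds for every difference below.

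The aged and young values did not overlap for 1109 genes (8.22%), 534 higher (3.96%) and 575 lower (4.26%) in the aged rats. Without YN3 the share was 17.7%, with 8.54% higher and 9.11% lower. Among those with a mean of at least 50 over all 6 libraries, the 12 with the smallest limma p in each direction were taken. The higher genes were Zfp36, Pim3, Pla2g3, Lrrc66, Adamts1, Apold1, Clec5a, Sgk1, Mmp8, Trib1, Pdk4 and Rnf43. They include a secreted phospholipase (Pla2g3), a myeloid surface receptor (Clec5a), metalloproteases (Adamts1, Mmp8) and a ubiquitin ligase that limits Wnt signalling (Rnf43). The lower genes were Aplnr, Egfl6, Ppic, Map3k7cl, Acta2, Myl9, Gpx3, Serpinb6b, Hebp1, Akr1cl, Slc40a1 and Mrvi1. Acta2 and Myl9 encode the actin and a myosin light chain of smooth muscle, Aplnr is the apelin receptor, and Slc40a1 is ferroportin, the iron exporter. AN3 was the highest library for Pim3, Pla2g3, Clec5a, Sgk1, Pdk4 and Rnf43, and AN1 for Zfp36, Lrrc66, Adamts1, Apold1, Mmp8 and Trib1. Pla2g3 stood at 45.2, 25.7 and 23.04 against 113, 60.1 and 217 and rose with all libraries (DESeq2 adjusted p = 0.019, and 0.096 without YN3). Its young and aged ranges did not meet, but the aged values spread widely.

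**Figure D1:**
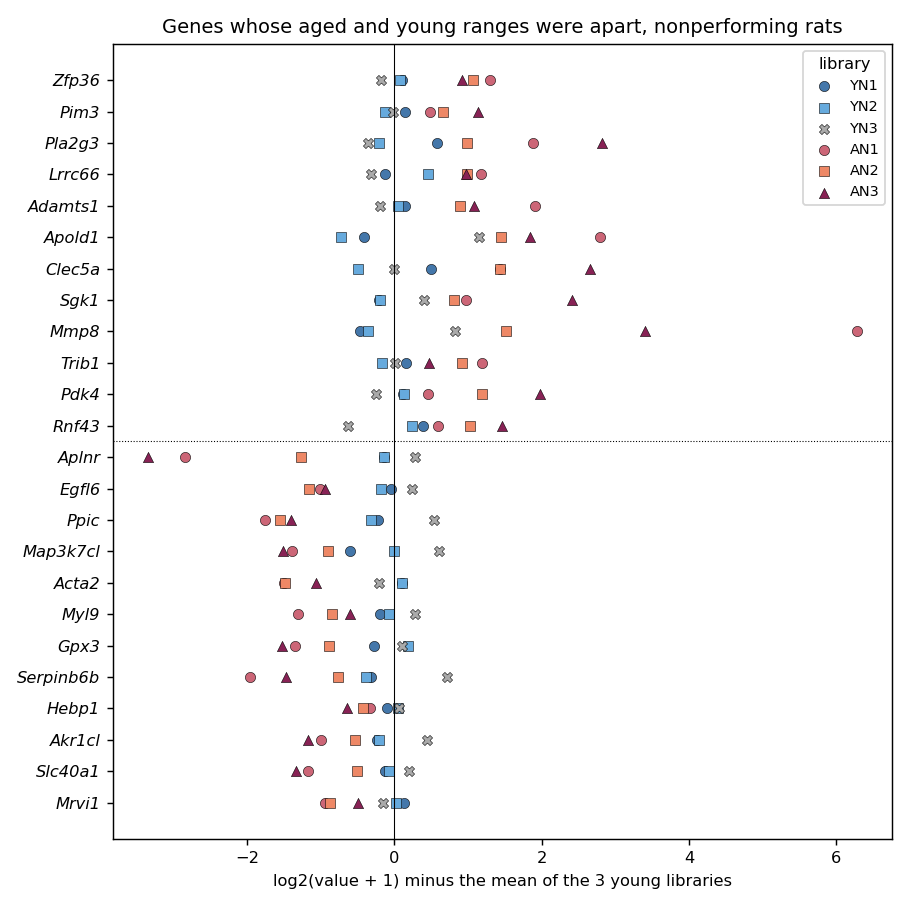
Each point is 1 nonperforming library, placed by log2(value + 1) minus the mean of the 3 young libraries, for the 12 higher and the 12 lower genes whose groups did not overlap. Mmp8 spreads most widely, from 10.5 to 313 in the aged libraries, while Zfp36 runs from 261 to 338.

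Zfp36 was the only gene that DESeq2 called with all 6 libraries and with each of them left out in turn. It encodes tristetraprolin, a protein that binds AU-rich elements in short-lived inflammatory transcripts and speeds their decay. Its values were 147, 145 and 121 in YN1, YN2 and YN3, and 338, 287 and 261 in AN1, AN2 and AN3. Every aged library was above every young one, with AN1 highest. Zfp36 rose 2.15-fold, from 138 ± 14.3 to 295 ± 39.3 (SD, n = 3), a log2 difference of 1.09 ± 0.17 with an adjusted p of 0.66 in limma, 0.62 in edgeR and 1.4e-05 in DESeq2. In the DESeq2 fits with 1 library left out, its adjusted p ran from 2.3e-05 to 0.0031. limma with library quality weights, which set YN3 at 0.0615, called 4 genes (0.0296%), Zfp36, Sik1, Apold1 and Aplnr, with an adjusted p of 0.02 for Zfp36. In performing rats its age difference was 0.35 ± 0.17, and the difference between both age effects was 0.74 ± 0.24 (limma adjusted p = 0.9998).

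Other genes of a list of inflammatory feedback genes and short-lived inflammatory transcripts were mostly higher as well. Of 23 matched members of that list 20 passed the filter. Of these 17 were higher and 3 lower, with a median of 0.66 against 0.01 for all genes. Without YN3 15 were higher and 5 lower, with a median of 0.51. The groups did not overlap for 6 members, Zfp36, Pim3, Socs3, Il1b, Nfkbiz and Tnfaip3, all higher, beside 3.96% of all genes. Pim3, a serine/threonine kinase that promotes cell survival, stood at 629, 521 and 562 in the young and 799, 901 and 1255 in the aged libraries. The ranges were apart with AN3 highest. Pim3 rose 1.73-fold (DESeq2 adjusted p = 0.024, 0.048 without YN3, 0.068 without YN1 and 0.32 without YN2). Socs3, which blocks cytokine receptor signalling, stood at 8.66, 7.50 and 6.14 against 35.8, 17.2 and 25.7. Il1b, the cytokine interleukin-1 beta, stood at 6.74, 4.29 and 9.22 against 32.3, 13.4 and 15.8. AN1 was highest for both, and neither passed a test. For both genes, only the aged ones among the nonperforming libraries reached the filter value. The aged performing libraries reached it too, at 15.4 to 25.7 for Socs3 and 15.4 to 30.8 for Il1b. A filter on low values can favour genes that are high in the aged group, so the counts for this list are a description. Nfkbia, the inhibitor of NF-kB, stood at 343, 391 and 836 against 851, 596 and 965, so that YN3 lay inside the aged range. Nfkbia rose when YN3 was left out (1.10 ± 0.26, DESeq2 adjusted p = 0.048, against 0.78 with all libraries).

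Genes that cells induce soon after stimulation were mostly higher in the aged mean, with AN3 apart from AN1 and AN2 for several of them. Of 37 tested immediate early and activity-induced genes, 33 were higher and 4 lower, with a median of 0.40. The groups did not overlap for 3 of them, Trib1, Csrnp1 and Per1, all higher, beside 3.96% of all genes. Without YN3 28 were higher and 9 lower with a median of 0.58. The groups then did not overlap for 17 higher and 2 lower members, beside 8.54% and 9.11% of all genes. DESeq2 without YN3 called 6 of these genes, Sik1, Arc, Cyr61, Dusp1, Btg2 and Nr4a1, all higher, beside 0.113% of all genes. With YN3 it called 0 of them. The same genes had a median of 0.02 in performing rats.

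Sik1, a kinase that restrains cAMP-driven transcription, stood at 166, 142 and 379 in the young and 562, 349 and 405 in the aged libraries. YN3 was above AN2. Sik1 rose when YN3 was left out (1.48 ± 0.20, DESeq2 adjusted p = 1.2e-06) and had a difference of 1.04 ± 0.32 when it was kept (DESeq2 adjusted p = 0.78). Dusp1, a phosphatase that switches off MAP kinases, stood at 886, 558 and 1323 against 2159, 3399 and 1309. AN3 was just below YN3, and AN1 and AN2 were above all others. Arc, which regulates glutamate receptor trafficking at synapses, stood at 2576, 1308 and 7124 against 8098, 11378 and 4225. YN3 was above AN3 there too. Npas4, an activity-dependent transcription factor of neurons, stood at 204, 193 and 256 against 799, 1194 and 172, and AN3 was the lowest of all 6. Fos, a subunit of the AP-1 transcription factor, stood at 319.5, 235 and 521 against 927, 1370 and 298, with AN3 again between the young values. Without AN3, DESeq2 called Npas4 (adjusted p = 2.0e-12), Fos (6.9e-04), Btg2 (8.2e-08), Dusp1 (0.022) and Cyr61 (0.024). Egr1, another immediate early transcription factor, stood at 5299, 4269 and 11246 against 7349, 8448 and 3669. AN1 and AN2 were above YN1 and YN2, while YN3 was the highest of all 6 and AN3 the lowest. Its limma difference was -0.05 with all libraries, 0.36 without YN3 and 0.31 without AN3, and no fit called it.

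**Figure D2:**
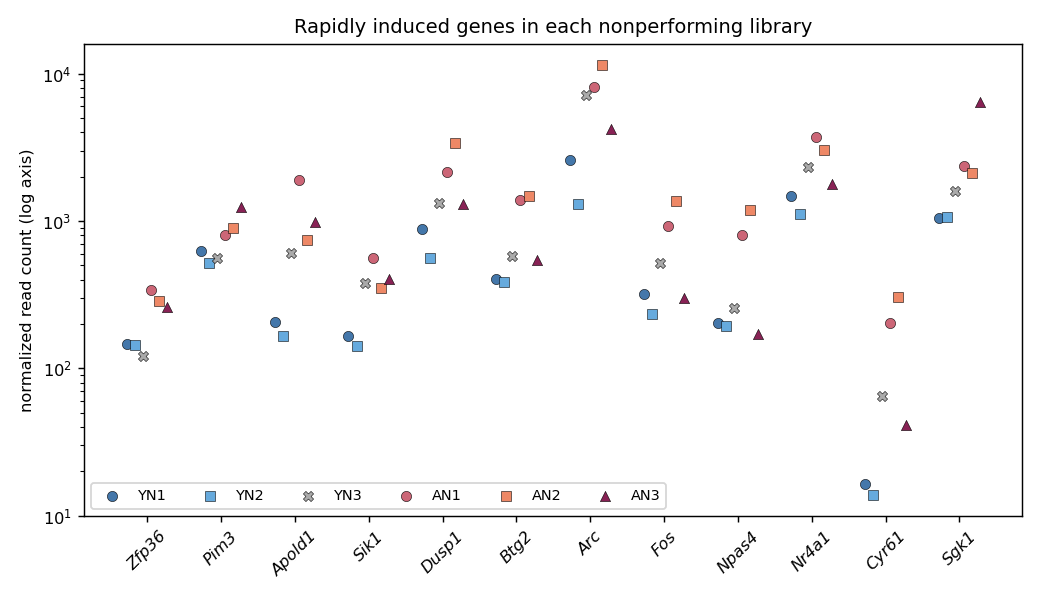
Normalized read counts (log axis) of 12 rapidly induced genes in each of the 6 nonperforming libraries. YN3 stands above the other young libraries for genes that include Apold1, Sik1, Dusp1, Arc, Fos, Npas4, Nr4a1, Cyr61 and Sgk1. For Zfp36 and Pim3 it does not. AN3 is the lowest aged library for Zfp36, Dusp1, Btg2, Arc, Fos, Npas4, Nr4a1 and Cyr61.

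DESeq2 called 20 genes with all libraries or without YN3, and 16 of them had a promoter window in RefSeq (rat build GRCr8, while the reads had been placed on Rnor_6.0). Shown are 5 windows that hold a match to the motifs searched, chosen after the matches were seen. Each holds the 250 bases before the RefSeq start, 5′ to 3′ on the strand of the gene. Capitals mark matches on either strand to the cAMP response element TGACGTCA, to its shorter core TGACG and to the CArG box.
Btg2 (chr13:48087691-48087940, minus strand): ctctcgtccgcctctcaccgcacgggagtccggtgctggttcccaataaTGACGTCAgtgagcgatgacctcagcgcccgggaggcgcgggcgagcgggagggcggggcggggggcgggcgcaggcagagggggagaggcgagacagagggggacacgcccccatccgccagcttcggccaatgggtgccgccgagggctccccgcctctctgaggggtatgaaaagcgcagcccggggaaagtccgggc
Dusp1 (chr10:17184603-17184852, plus strand): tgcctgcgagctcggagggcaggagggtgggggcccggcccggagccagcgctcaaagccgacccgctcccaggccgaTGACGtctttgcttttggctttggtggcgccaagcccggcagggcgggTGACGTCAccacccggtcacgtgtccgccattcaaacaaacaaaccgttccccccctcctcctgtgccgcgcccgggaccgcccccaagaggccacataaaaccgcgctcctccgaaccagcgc
Sik1 (chr20:9958647-9958896, minus strand): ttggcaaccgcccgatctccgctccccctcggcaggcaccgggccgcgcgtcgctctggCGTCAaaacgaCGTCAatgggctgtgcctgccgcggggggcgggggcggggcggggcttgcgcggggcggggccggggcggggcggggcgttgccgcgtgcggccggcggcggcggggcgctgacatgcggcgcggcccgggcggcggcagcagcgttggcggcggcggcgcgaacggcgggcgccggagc
Nr4a1 (chr7:134259888-134260137, plus strand): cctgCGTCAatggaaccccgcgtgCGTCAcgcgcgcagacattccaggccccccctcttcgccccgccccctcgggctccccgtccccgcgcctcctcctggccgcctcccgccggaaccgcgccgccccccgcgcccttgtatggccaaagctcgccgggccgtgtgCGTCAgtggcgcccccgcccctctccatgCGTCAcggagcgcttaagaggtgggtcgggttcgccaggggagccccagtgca
Zfp36 (chr1:92799109-92799358, minus strand): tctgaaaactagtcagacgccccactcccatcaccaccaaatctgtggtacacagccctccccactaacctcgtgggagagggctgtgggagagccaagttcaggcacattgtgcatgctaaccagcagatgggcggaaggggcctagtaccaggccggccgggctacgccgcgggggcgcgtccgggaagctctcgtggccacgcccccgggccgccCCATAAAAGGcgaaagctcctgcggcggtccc
The 16 genes have 18 windows, 3 of them of Sgk1. TGACGTCA was found in 3 of these windows, those of Btg2, Dusp1 and Plekhf1, and in 1.59% of all 33469 windows of that length. TGACG, which also matches inside the longer element, was found in 8 of them and in 18.2% of all windows. The AP-1 site TGANTCA was found in 0 of them and in 6.34% of all windows, and the CArG box in 1, that of Zfp36, and in 1.5% of all windows. The windows of Pim3, Sgk1, Nfkbia and Mmp8, which also rose, held no match to these motifs. These matches of letters are a description.

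Apold1 and Adamts1 were higher in every aged library. Apold1, an endothelial gene induced by stress and activity, stood at 205, 165 and 608 in the young and 1900, 748 and 982 in the aged libraries. The ranges did not overlap, and YN3 was the young library nearest to the aged ones. The difference was 2.02 ± 0.52 with YN3 (DESeq2 adjusted p = 0.24) and 2.60 ± 0.44 without it, where Apold1 rose (DESeq2 adjusted p = 6.1e-06). Adamts1, a protease that cleaves matrix proteoglycans, stood at 129, 121 and 101 against 439.8, 217 and 247, a difference of 1.29 ± 0.33 (limma adjusted p = 0.73) against -0.10 ± 0.33 in performing rats. Cyr61, a matricellular protein, stood at 16.4, 13.9 and 65.3 against 202, 305 and 41.5, and AN3 lay below YN3.

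Genes that respond to glucocorticoids were also mostly higher. Of 19 tested members, 17 were higher and 2 lower both with and without YN3, with medians of 0.50 and 0.71. The groups did not overlap for 5 of them, Sgk1, Pdk4, Per1, Klf15 and Errfi1, all higher, beside 3.96% of all genes. Per1 was also counted among the immediate early genes above, and members such as Dusp1 and Nfkbia are in the earlier lists too. Sgk1, a kinase that regulates ion channels and is induced by corticosteroids, stood at 1054, 1059 and 1607 in the young and 2378, 2135 and 6465 in the aged libraries. AN3 was far above all others. Sgk1 rose without YN3 (1.60 ± 0.40, DESeq2 adjusted p = 0.015), and its DESeq2 adjusted p was 0.11 with all libraries and 0.96 without AN3. Pdk4, which shifts fuel use away from glucose oxidation, stood at 65.4, 66.4 and 50.7 against 83.1, 138 and 240.2, again highest in AN3. Per1, a clock gene that glucocorticoids and activity can induce, stood at 1601, 1337 and 994 against 2687, 1915 and 2032. Fkbp5, a co-chaperone of the glucocorticoid receptor, overlapped between the groups (1005 to 1250.3 and 1206 to 1339). The 17 circadian clock genes had a median of 0.15, or 0.05 without YN3.

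The blood cell genes that passed the filter had higher aged means as well. Of 13 matched neutrophil genes 8 passed it, and all 8 were higher in the aged mean. A filter on low values can favour genes that are high in 1 group, so this count is a description. The summed values of the 8 were 275, 268 and 279.6 in the young and 3904, 354 and 897 in the aged libraries. AN1 carried most of that sum. Mmp8, neutrophil collagenase, stood at 1.92, 2.14 and 6.14 against 313, 10.5 and 41.5, so only the aged libraries of the 6 reached the filter value of 10. S100a8 and S100a9, the calprotectin subunits, stood at 16.4, 8.57 and 9.98 against 1188, 14.3 and 175 and at 25.98, 20.4 and 37.6 against 1737, 28.6 and 250.1. All of these rose in DESeq2 with all libraries (adjusted p = 0.011, 0.014 and 0.034). Without AN1, S100a8 and S100a9 had adjusted p of 0.19 and 0.38, and DESeq2 gave Mmp8 none. All 6 tested red cell genes were higher too, with a median of 1.54, or 2.64 without YN3. Their sums were 1824, 1745 and 18471 in the young and 8305, 3289 and 47554 in the aged libraries, highest in AN3 and next in YN3. The part of blood in the differences of Zfp36, Sgk1 and the inflammatory genes was not tested.

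Vessel genes were mostly lower in the aged rats, and Aplnr fell. Aplnr, the receptor for apelin on endothelial cells, stood at 126, 126 and 169 in the young and 18.5, 57.3 and 12.8 in the aged libraries. The ranges were wide apart, and AN2 was the highest aged library. Aplnr fell 4.76-fold, from 140.5 ± 24.7 to 29.5 ± 24.2 (SD, n = 3), a log2 difference of -2.48 ± 0.50 (DESeq2 adjusted p = 0.034). Without YN3 the difference was -2.34 ± 0.56 and DESeq2 no longer called it (adjusted p = 0.17), and of the 6 fits with 1 library left out only that without AN2 did. Of 20 tested endothelial genes 18 were lower, with a median of -0.38. Aplnr, Tie1, Slc7a5, Ocln, Slco1a2 and Emcn, 6 of the 20, were lower without overlap, beside 4.26% of all genes. Tie1, a receptor of the angiopoietin system, stood at 804, 870 and 1048 against 592, 739.9 and 410.2, and Ocln, the tight junction protein occludin, at 576, 657 and 631 against 358, 494 and 326. Without YN3 14 of the 20 were lower, with a median of -0.25. Cldn5, the main claudin of brain endothelium, was highest in YN3 (8624 against 2145 to 2875 in the others), and its difference went from -0.49 to 0.13 without YN3. In performing rats 18 of the 20 were lower, with a median of -0.37.

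Genes of pericytes and smooth muscle were mostly lower too. Of 16 tested members 14 were lower with a median of -0.56, and without YN3 16 were lower with a median of -0.47. In performing rats 11 were higher and 5 lower with a median of 0.09. Acta2, smooth muscle actin, stood at 434, 433 and 347 in the young and 142, 143 and 192 in the aged libraries. The ranges were far apart, with a 2.55-fold lower aged mean (log2 difference -1.35 ± 0.40, limma adjusted p = 0.73). Over all alternatives its difference ran from -1.57 to -1.28. Myh11, the smooth muscle myosin heavy chain, stood at 582, 544 and 477 against 280.5, 333 and 343. Myl9, a myosin light chain, stood at 457, 498 and 638 against 211, 291 and 346. Vtn, vitronectin, a matrix protein that brain pericytes make, stood at 697, 676 and 1039 against 267, 402 and 261. Each of these was lower in every aged library, and YN3 was the highest young library for Myl9 and Vtn but the lowest for Acta2 and Myh11. In performing rats Acta2 overlapped, at 180.3, 647 and 398 against 517, 301 and 586. The difference between both age effects was -1.67 ± 0.56 for Acta2 and -1.12 ± 0.40 for Myl9, and neither passed adjustment (limma adjusted p = 0.9998 for both).

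**Figure D3:**
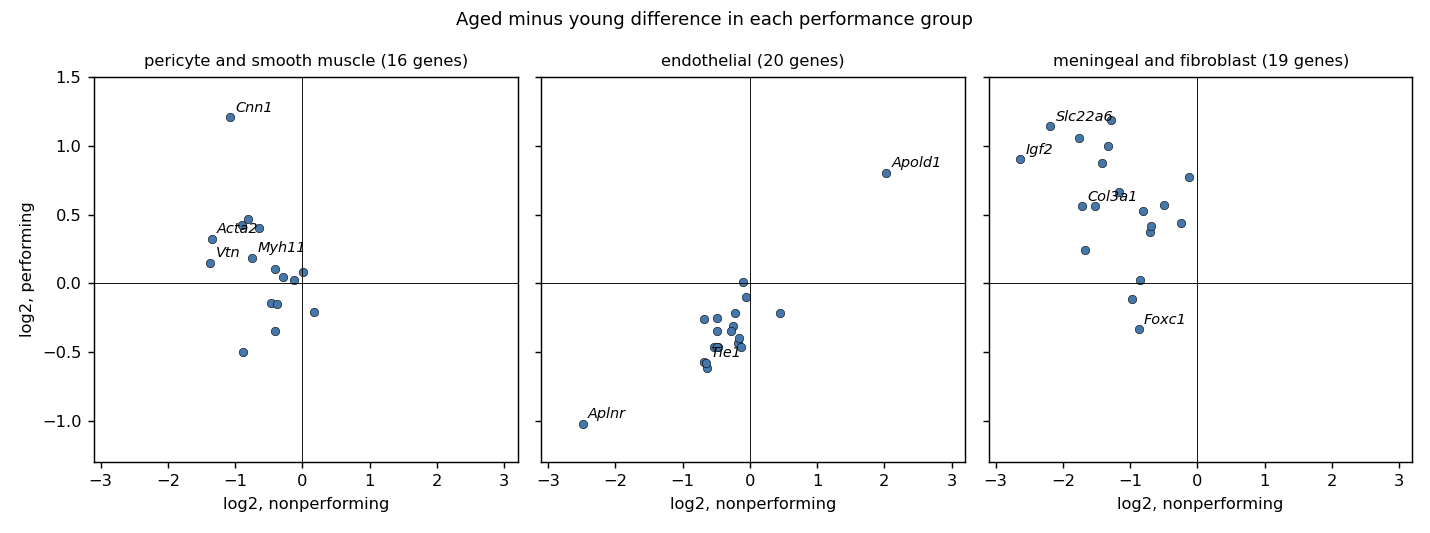
Each point is 1 tested gene, placed by its log2 difference between aged and young in nonperforming (horizontal axis) and performing rats (vertical axis), for endothelial, pericyte and smooth muscle, and meningeal genes. Of the meningeal genes 19 lie left of 0 and 17 above it, and of the endothelial genes 18 lie below 0 in performing rats.

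Meningeal and fibroblast genes had the lowest median of the 38 gene lists. All 19 tested members were lower, with a median of -1.17 and 9 without overlap (beside 4.26% of all genes), and the median was -1.07 without YN3. Igf2, a growth factor made by the meninges, stood at 1956, 592 and 1316 against 157, 218 and 186. Fmod, the matrix proteoglycan fibromodulin, stood at 372, 195 and 249 against 41.6, 98.3 and 111. Slc22a6, an organic anion transporter, stood at 168, 52.5 and 62.2 against 25.4, 20.05 and 9.88. These ranges were apart, and YN1, not YN3, was the highest young library for each. In performing rats 17 of the 19 were higher, with a median of 0.56, and Igf2 stood at 247, 3696 and 1218 against 2426, 703 and 4287. The summed level of the list was 21870.4, 8623 and 23382 in the young and 4163, 8978 and 7823 in the aged libraries, so the sums overlapped. The part of meningeal tissue in the lower values of Acta2, Myh11 and Gpx3 was not tested. Gpx3, a secreted glutathione peroxidase, stood at 422, 583 and 549 against 199.7, 277 and 178, a difference of -1.26 ± 0.38 against 0.41 ± 0.38 in performing rats.

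Glial genes overlapped more. Gfap, the intermediate filament of astrocytes, stood at 8745, 10900.1 and 24964 against 13459, 14737 and 47683 and overlapped through YN3. Without YN3 its difference was 1.11 ± 0.46 (limma adjusted p = 0.9998). The 14 astrocyte markers had a median of 0.10, and 0.03 without YN3. That median turned negative without AN3. Of 17 microglia markers 9 were higher and 8 lower with a median of 0.01. Without YN3 13 were higher and 4 lower with a median of 0.08. In performing rats 16 were higher and 1 lower, with a median of 0.44. Clec7a, a receptor of activated microglia, was higher in every aged library, at 0.962, 7.50 and 14.6 against 36.9, 15.3 and 47.4. C3, the central complement protein, stood at 561, 480 and 1021 against 388, 1851 and 3352, so that AN1 was the lowest of all 6. Of 30 complement and antigen presentation genes 21 were higher, with a median of 0.19, and 28 without YN3, with a median of 0.43. Without AN3 that median turned negative, to -0.24 at the lowest. The mean log2 level of the list, centred over the 6 libraries, was -0.21, -0.51 and 0.21 against -0.72, 0.16 and 1.08. AN1 was thus the lowest library and AN3 the highest. C4b was the only 1 of these 30 genes higher without overlap (20.7 to 40.4 and 62.3 to 126), beside 3.96% of all genes. Its reads may be shared with its near-identical copy.

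Myelin genes divided the aged libraries. Mog, a glycoprotein of the outer myelin surface, stood at 1477, 1522 and 3181 against 1015, 2696 and 3078. AN1 was the lowest library and YN3 the highest. Of 17 myelin and oligodendrocyte genes 12 were higher with a median of 0.13, and without YN3 17 were higher with a median of 0.44. Of these only Hapln2, a matrix protein of the nodes of Ranvier, was higher without overlap, beside 3.96% of all genes. It stood at 1381, 1204 and 1541 against 1686, 1680.3 and 3669.7. Olig2, a lineage transcription factor in the list of oligodendrocyte precursor genes, was apart as well, at 630.4, 605 and 729.6 against 751, 935 and 1533. Its difference was 0.65 ± 0.22 (limma adjusted p = 0.73). DESeq2 called Olig2 only without AN1 (adjusted p = 0.044, against 0.72 with all libraries). Gpr17, a receptor of newly forming oligodendrocytes, stood at 500.4, 515 and 108 against 240.1, 221 and 357, lower in every aged library than in YN1 and YN2 but lowest in YN3.

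Synaptic genes gave small differences whose direction turned on YN3. Of the 16 genes of GABA receptors and gephyrin, 12 were higher with a median of 0.14, whereas without YN3 16 were lower with a median of -0.17. Gabrb2, a receptor subunit, stood at 673, 1147 and 137 against 1099, 908 and 591, lowest in YN3. Gabra5, a subunit of extrasynaptic receptors, was the only member apart with all libraries, beside 4.26% of all genes lower without overlap. It stood at 2302, 3239 and 2415 against 2287, 2159 and 1727 (-0.36 ± 0.18, limma adjusted p = 0.73). Glutamate receptor and postsynaptic genes turned from a median of 0.11 to -0.14, and genes of cAMP signalling and of HCN and KCNQ channels from 0.31 to -0.08. Stx1a, a syntaxin of synaptic vesicle fusion, was lower without overlap, at 10898, 11639 and 12453 against 9743, 9235 and 7795 (-0.39 ± 0.16, limma adjusted p = 0.73). Lhx6, a transcription factor of inhibitory interneurons, was higher without overlap, at 51.97, 62.1 and 16.1 against 91.2, 99.3 and 87.96. Drd1, a dopamine receptor abundant in striatum, was also higher, at 204, 182 and 143 against 211, 228 and 449, and highest in AN3.

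**Figure D4:**
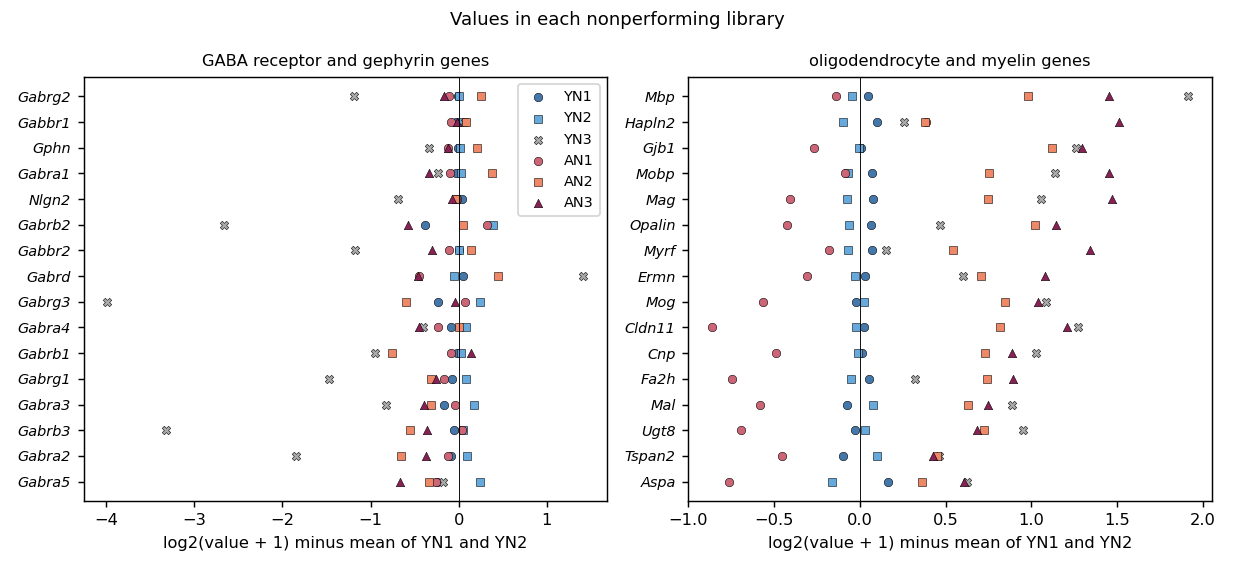
Each point is 1 library, placed by log2(value + 1) minus the mean of YN1 and YN2, for the 16 GABA receptor and gephyrin genes and for 16 of the 17 myelin and oligodendrocyte genes. YN3 lies low for several receptor subunits, such as Gabrb2, and AN1 lies below YN1 and YN2 for myelin genes such as Mog.

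Energy and protein folding genes also depended on YN3. Of 34 nuclear genes of the respiratory chain 32 were lower with a median of -0.30, and without YN3 12 were lower with a median of 0.02. Uqcrfs1, the Rieske protein of complex III, was the only one of the 34 apart with all libraries, beside 4.26% of all genes lower without overlap. It stood at 3386, 3719 and 5944 against 3155, 2779 and 2991 (-0.50 ± 0.19, and -0.26 ± 0.12 without YN3). Of 21 chaperone genes 20 were lower with a median of -0.26, against 11 lower without YN3. Hsp90aa1, a cytosolic chaperone, stood at 6997, 8477 and 23154 against 6168, 9359.9 and 5560.4, highest in YN3.

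**Figure D5:**
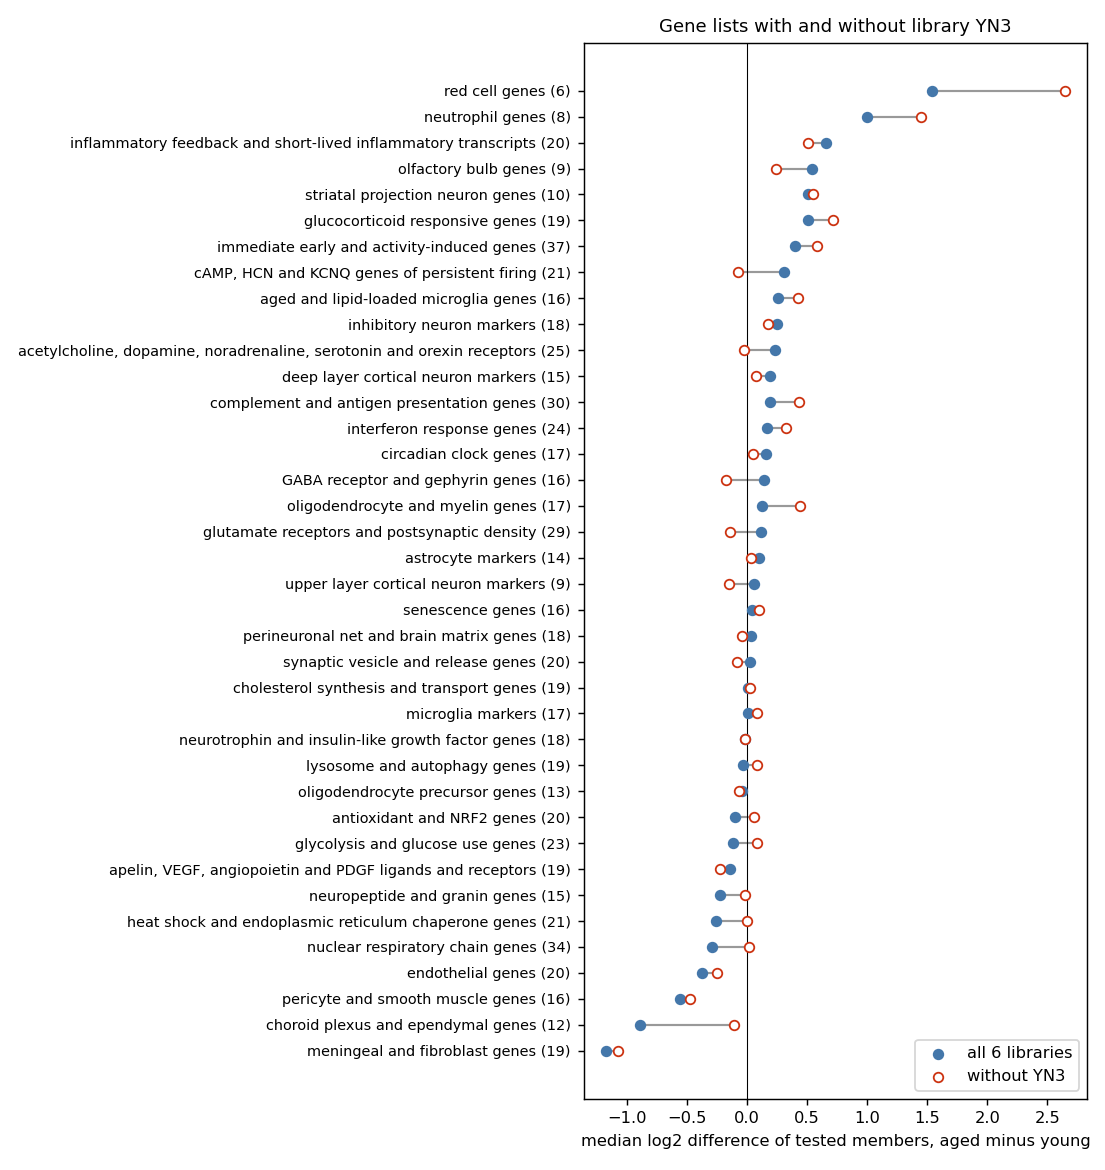
Median log2 difference between aged and young of the tested members of 38 gene lists, with the number of members in brackets, for all 6 libraries and without YN3. The meningeal list has medians of -1.17 and -1.07, and the respiratory chain list moves from -0.30 to 0.02.

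The age difference without the task was set beside that of the performing rats, which share no library with it. In both, age runs with the order of the sample titles. A difference in handling along that order would be shared by both and cannot be told apart from age. The difference between both age effects gave 0 genes in limma (0.0%; 139 at an unadjusted p under 0.05, 1.03%), 0 in edgeR (172, 1.27%) and 0 in DESeq2 (219, 1.62%), where leaving out AN2 gave 2 genes and leaving out AN3 gave 3. Without YN3 limma gave 0 (404, 2.99%). Of the 225 genes higher at an unadjusted limma p under 0.05 in nonperforming rats, 190 were also higher in performing rats, with a median of 0.26 there against 0.80. Of the 203 lower genes, 136 were also lower, with a median of -0.13 against -0.74, and over all 13496 genes 69.4% had the same sign in both. The ranges were apart in the same direction in both performance groups for 202 genes, 106 higher and 96 lower, beside 8.22% of all genes apart in nonperforming and 16.0% (2156 genes) in performing rats. Among the genes named above these include Zfp36, Trib1, Sgk1, Pdk4 and Clec7a on the higher side and Aplnr, Tie1, Slc40a1, Egfl6 and Stx1a on the lower side. Slc40a1 stood at 195, 201 and 245 against 93.5, 149.9 and 84.01 without the task and at 149, 163 and 356 against 122, 108 and 109 with it. Clec7a differed by 2.28 ± 0.92 without the task and by 3.15 ± 0.92 with it.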

How the data were processed

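RNA sequencing of medial prefrontal cortex was analysed in 12 libraries, 3 in each of 4 groups, of which the 6 nonperforming ones are the subject. RNA was extracted with RNeasy and 1000 ng per sample entered a TruSeq stranded mRNA preparation, per the labels' protocols. Trimmomatic, Bowtie2, TopHat2, HTSeq and DESeq2 and the build Rnor_6.0 are named in the submitters' processing notes, and their versions are not given in the sources used here. The deposited table holds a signal per gene, a normalized count, and its values show that the authors divided whole reads by 1 factor per library: dividing each column by the step of its low values gave whole reads for 100% of values (tolerance 0.01).

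From these values, limma 3.58.1 (R 4.3.3; trend; 8 residual and 3.32 prior degrees of freedom) was fitted to log2(value + 1) as 4 group means over 12 libraries, for genes that reached 10 in 3 or more libraries, with Benjamini-Hochberg adjustment over 13496 genes. edgeR 4.0.16 (quasi-likelihood) and DESeq2 1.42.0 were run on the recovered reads. The limma fit was tested on simulated data, and those of edgeR and DESeq2 were not. The report gives the range of reads per library. The 38 gene lists hold 740 names, of which 689 matched (8 by synonym) and 663 were tested. Some names are shared between lists. Members and lists were chosen with earlier results of these data known. Genes were taken by rule, and the text names a part of them: the 12 per direction with the smallest p among genes with a mean of at least 50 and no overlap, up to 4 per list, the DESeq2 calls, a few fixed by name such as Fos and Gfap, the 5 with the smallest p of the difference between age effects, and up to 6 per direction without YN3. The report also names further list members to illustrate a list, chosen after their values were seen. Promoters came from RefSeq (GRCr8). Some items are not reported here. Groups of 3 were too small to test single libraries as outliers. Alternatives were other pseudocounts, filters, scalings, tools, library weights and each library left out.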

Additional observations from a re-analysis of the deposited data

Results flagged for a closer look

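For 13 genes the aged and young ranges were apart in opposite directions in nonperforming and performing rats. Clic3, Cnn1 and Tnk1 are those of the 13 that were also among the 5 genes with the smallest limma p of the difference between both age effects. For each, every aged library was below every young one without the task and above every young one with it. The difference between both age effects was tested for each and did not pass adjustment (limma adjusted p = 0.9998). Clic3, a chloride intracellular channel protein, stood at 25.02, 20.4 and 32.3 in the young and 11.5, 7.64 and 13.8 in the aged nonperforming libraries, and at 8.87, 22.5 and 19.7 in the young and 28.3, 28.5 and 29.6 in the aged performing libraries. Its difference between age effects was -1.99 ± 0.54. Cnn1, the smooth muscle protein calponin, stood at 13.5, 12.9 and 15.4 in the young and 8.08, 3.82 and 6.92 in the aged nonperforming libraries, and at 5.91, 18.9 and 7.64 in the young and 23.1, 20.2 and 27.7 in the aged performing libraries. Its difference was -2.29 ± 0.62. Tnk1, a non-receptor tyrosine kinase, stood at 17.3, 9.64 and 13.1 in the young and 9.23, 4.77 and 1.98 in the aged nonperforming libraries, and at 0, 1.18 and 3.82 in the young and 10.3, 5.93 and 5.93 in the aged performing libraries. Its difference was -3.22 ± 0.91, on values near the lower limit of the filter. Clic3 and Cnn1 were low as well, each with values under the filter value of 10 in some libraries.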

How the results depend on the processing

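34 alternatives were run. Of the 79 genes whose differences are described, 73 kept their direction in each of the 32 or 33 alternatives that gave a difference for them. The alternatives of edgeR and DESeq2 without a library were added after seeing the data. The count of 0 genes called held in limma and edgeR except with library weights (4), and DESeq2 called 7, or from 2 to 23 with 1 library left out (16 without YN3, 3 without YN1, 2 without YN2, 23 without AN1, 11 without AN2 and 10 without AN3). Genes at an unadjusted p under 0.05 numbered 770 in DESeq2, 1052 with library weights and 255 when only the 6 libraries were fitted. They numbered 946 with the title prefix, which sets the young YN1 and YP1 apart, as a covariate. With 1 library left out they ran from 252 (without AN3) to 1448 (without YN1) in limma, with 914 without YN2, and from 401 (without AN3) to 1932 (without YN1) in DESeq2, with 1467 without YN2. Of these genes 52.6% were higher, against 42.7% after quantile normalization (185 higher, 248 lower), 64.4% with totals without mitochondrially encoded genes, 40.1% in edgeR, 34.9% in DESeq2, 44.3% when only the 6 libraries were fitted, 63.5% without AN1 and, in DESeq2 with 1 library left out, from 21.8% without YN2 (320 higher, 1147 lower) and 25.9% without YN1 (501 higher, 1431 lower) to 67.3% without YN3 (315 higher, 153 lower). The difference between age effects gave from 0 to 3 genes in DESeq2 with 1 library left out (2 without AN2 and 3 without AN3). Of the 38 list medians 13 kept their sign in each alternative, and 11 changed it in limma without YN3. The genes that changed direction were these, as log2 differences. Egr1 ran from -0.338 to 0.361 in limma with 1 library left out, and was 0.0642 with quantile normalization, 0.021 with totals without mitochondrially encoded genes, 0.423 with library weights, 0.361 in the 6 libraries alone without YN3, 0.433 in edgeR without YN3, 0.444 in DESeq2 without YN3, 0.183 in DESeq2 without AN3. Cldn5 ran from -0.874 to 0.13 in limma with 1 library left out, and was 0.0587 with library weights, 0.13 in the 6 libraries alone without YN3, 0.132 in edgeR without YN3, 0.139 in DESeq2 without YN3. Gfap ran from 0.0771 to 1.11 in limma with 1 library left out, and was -0.0805 in DESeq2 without AN3. Mog ran from -0.22 to 0.58 in limma with 1 library left out, and was -0.00326 with the title prefix as a covariate, -0.0584 in DESeq2 without YN1, -0.0456 in DESeq2 without YN2, -0.00882 in DESeq2 without AN2, -0.157 in DESeq2 without AN3. Gpr17 ran from -0.926 to 0.194 in limma with 1 library left out, and was 0.0632 with the title prefix as a covariate. Gabrb2 ran from -0.0672 to 1.46 in limma with 1 library left out, and was -0.185 with library weights, -0.0672 in the 6 libraries alone without YN3, -0.0738 in edgeR without YN3, -0.068 in DESeq2 without YN3. The causes were not tested.

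No paired analysis was possible because the labels state no pairs, and numbers within a group were given in sample order. With 3 libraries a group, the median standard error of a difference was 0.238 on the log2 scale, or 0.188 without YN3. Differences of that size were not detectable for a typical gene. Far larger ones, such as -2.48 for Aplnr, were also not called by limma without library weights. Without YN3 the young group has 2 libraries and borrows its spread from the other groups.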

Other observations

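Matrix genes of perineuronal nets included both higher and lower values. Of 18 tested members, 10 were higher and 8 lower, with 3 higher and 2 lower without overlap, beside 3.96% and 4.26% of all genes. Hapln1, a link protein that ties proteoglycans to hyaluronan, stood at 1662, 1527 and 2044 against 1286, 1439.7 and 1131, while its relative Hapln4 stood at 4833, 4608 and 4127 against 5157, 9307 and 5223. Has2, a hyaluronan synthase, stood at 17.3, 16.1 and 9.22 against 5.77, 6.68 and 7.91. In the list of senescence genes, with a median of 0.04 (0.10 without YN3), the kinase gene Plk3 was higher without overlap, at 209.8, 163 and 164 against 287, 263 and 230.3. No gene of this paragraph was called by limma, edgeR or DESeq2 with all libraries.

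The remaining lists had these median log2 differences. Neuronal markers stood at 0.06 (-0.15 without YN3) for upper layers, 0.19 (0.07 without YN3) for deep layers and 0.25 (0.18 without YN3) for inhibitory neurons. Striatal projection neuron genes stood at 0.51 (0.55 without YN3) and olfactory bulb genes at 0.54 (0.24 without YN3). Aged and lipid-loaded microglia genes stood at 0.26 (0.42 without YN3) and interferon response genes at 0.17 (0.32 without YN3). The medians of both these lists turned negative without AN3. Oligodendrocyte precursor genes stood at -0.04 (-0.07 without YN3). Angiogenic ligands and receptors stood at -0.14 (-0.22 without YN3) and choroid plexus and ependymal genes at -0.89 (-0.11 without YN3). Synaptic vesicle genes stood at 0.03 (-0.08 without YN3), transmitter receptors at 0.23 (-0.03 without YN3), neuropeptides at -0.22 (-0.02 without YN3) and neurotrophins at -0.02 (-0.01 without YN3). Metabolic lists stood at -0.11 (0.08 without YN3) for glycolysis, 0.01 (0.02 without YN3) for cholesterol, -0.03 (0.08 without YN3) for lysosome and autophagy and -0.10 (0.06 without YN3) for antioxidant genes.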
